A study of Rattus norvegicus with 12 samples.

Results

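Metallothioneins, the ferritin subunits and a set of zinc and iron transporters were examined in cultured rat heart muscle cells exposed to DEHP, di(2-ethylhexyl) phthalate, a plasticizer of flexible plastics such as medical tubing. The 10 genes were chosen by symbol: Mt1, Mt2A, Mt3, Fth1, Ftl1, Slc30a1, Slc39a14, Tfrc, Slc40a1 and Slc11a2. Each was found, on 18 of the 27342 probe sets of the arrays, counting probe sets whose annotation gives that 1 gene symbol, among 14324 genes found in this way. Neonatal cardiomyocytes were isolated from Sprague-Dawley rat pups aged 2 days, plated as monolayers and grown for 3 days before treatment. The DEHP group (6 arrays) then received 50 µg/mL DEHP in 0.1% DMSO for 3 days, and the control group (6 arrays) received 0.1% DMSO for the same 3 days. All cells came from 1 litter, and the submitters describe the samples of a group as biological replicates, so the spread measured here is between cultures and arrays and not between litters.

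Metallothioneins are small cysteine-rich proteins that bind zinc, copper and cadmium. Their genes are induced through the zinc-sensing transcription factor MTF-1, which binds metal response elements, and also by glucocorticoids, oxidative stress and cytokines. Ferritin is a hollow shell of heavy and light chains that stores iron. Iron enters most cells by endocytosis of the transferrin receptor, crosses the endosome membrane through the transporter DMT1 and leaves through ferroportin, and iron regulatory proteins set the translation or stability of several of these messenger RNAs when iron is scarce. Heart muscle takes up iron for its heme proteins and mitochondria, and both lack and excess of iron are known to harm it.

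The deposited values are linear ratios of each probe set to its own median over the 12 arrays, used here as log2. They hold differences between arrays and no level, so genes cannot be ranked by abundance, and the label of the cells cannot be checked against the presence of its markers. Where the groups do not overlap, the lowest value of the higher group is by construction the highest of the lower group with its sign turned. Ratios were most spread out in DEHP replicate 6 (SD over probe sets 0.27 on the log2 scale) and control replicate 5 (0.37), while the 10 remaining arrays had SDs between 0.15 and 0.19. Log2 folds of the member probe sets are shown with and without DEHP replicate 6, and those of other genes and lists where stated. The log2 ratios of that array were far from those of the other DEHP arrays for several genes below. Several members have near-identical copies, and a probe set may read more than 1 of them: a RefSeq gene table of GRCr8 lists 5 further entries named after Mt1, 6 after Fth1 and 21 after Ftl1, of which 4, 5 and 15 are pseudogenes.

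In that table Mt1, Mt2A, Mt3 and Mt4 follow each other with 0 other entries between them. The 250 bases upstream of the transcript starts of the 3 neighbouring metallothionein members and of Slc30a1, a zinc exporter gene that is a textbook target of MTF-1, are shown because 2 of these genes rose with DEHP and 2 did not pass the test. The sequences are RefSeq's, each printed 5′ to 3′ on the strand of its gene. Capitals mark metal response element cores, searched on both strands as TGCACNC or TGCGCNC.
Mt1 (GRCr8 chr19:10832976-10833225, minus strand): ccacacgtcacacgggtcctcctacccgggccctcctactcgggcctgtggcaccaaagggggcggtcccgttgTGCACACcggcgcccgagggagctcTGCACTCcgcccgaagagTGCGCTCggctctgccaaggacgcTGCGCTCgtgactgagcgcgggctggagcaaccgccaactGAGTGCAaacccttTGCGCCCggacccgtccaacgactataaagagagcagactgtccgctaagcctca
Mt2A (GRCr8 chr19:10838709-10838958, minus strand): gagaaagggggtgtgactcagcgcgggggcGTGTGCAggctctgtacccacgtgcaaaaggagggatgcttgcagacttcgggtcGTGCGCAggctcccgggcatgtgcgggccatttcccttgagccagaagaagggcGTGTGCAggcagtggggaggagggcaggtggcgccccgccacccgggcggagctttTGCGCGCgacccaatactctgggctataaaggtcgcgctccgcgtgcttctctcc
Mt3 (GRCr8 chr19:10856081-10856330, minus strand): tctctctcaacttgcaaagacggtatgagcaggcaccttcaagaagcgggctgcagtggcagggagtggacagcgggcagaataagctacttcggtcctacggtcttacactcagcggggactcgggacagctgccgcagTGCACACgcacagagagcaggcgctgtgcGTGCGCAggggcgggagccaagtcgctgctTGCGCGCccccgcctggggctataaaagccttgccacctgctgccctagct
Slc30a1 (GRCr8 chr13:106021769-106022018, plus strand): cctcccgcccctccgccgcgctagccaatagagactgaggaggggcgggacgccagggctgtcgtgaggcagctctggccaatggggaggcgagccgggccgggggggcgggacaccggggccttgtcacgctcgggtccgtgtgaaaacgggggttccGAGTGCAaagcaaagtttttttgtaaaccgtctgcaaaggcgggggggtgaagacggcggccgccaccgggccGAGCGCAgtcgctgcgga

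The Mt1 window held 6 metal response cores, Mt2A 4, Mt3 3 and Slc30a1 2. Counted from the transcript start, the core nearest to it began at −55 in Mt1 and in Mt2A, at −51 in Mt3 and at −18 in Slc30a1. Of the 33469 promoter windows of this length in the RefSeq table, which counts some genes at several starts, 20.6% held at least 1 core, 4.9% at least 2, 1.17% at least 3, 0.266% at least 4 and 0.0269% at least 6. These shares were not matched for base content. The windows of Mt1, Mt2A, Mt3 and Slc30a1 were 66.4%, 66.0%, 62.8% and 69.2% G and C, and one form of the core is rich in these bases. The antioxidant response core TGACNNNGC, also searched on both strands, occurred 1 time each upstream of Mt1, Mt2A and Slc30a1, and 10.1% of all windows held at least 1. None of the metal response cores in these windows overlapped an antioxidant core. The table also held windows for 3 further members: that of Tfrc had 3 metal response cores, of which 2 overlap each other, and those of Slc40a1 and of both starts of Slc11a2 had no match to either motif. Fth1, Ftl1 and Slc39a14 are named only. A match is a run of letters and not a measured binding site.

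**Figure D1:**
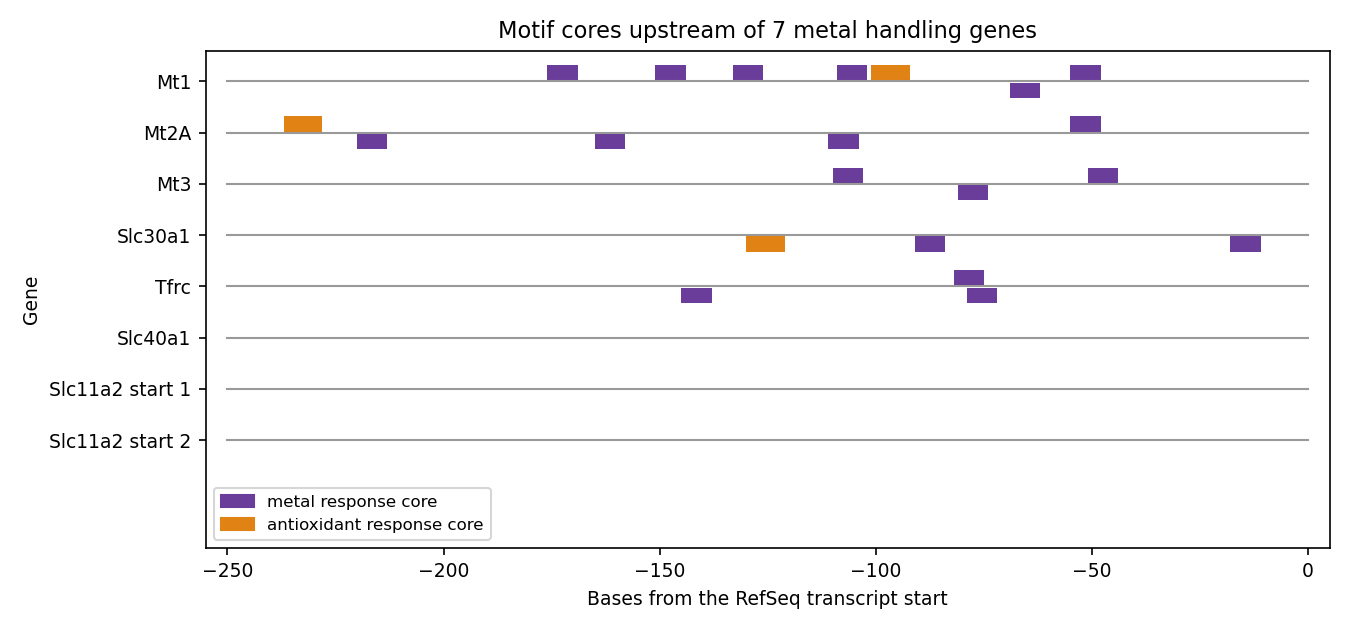
Positions of metal response cores (purple) and antioxidant response cores (orange) in the 250 bases upstream of the RefSeq starts of 7 genes (2 starts for Slc11a2), in bases from the start; boxes above a line lie on the strand of the gene and boxes below it on the other strand. Mt1 has 6 metal response cores, Mt2A 4, Mt3 3, Slc30a1 2 and Tfrc 3, and the windows of Slc40a1 and Slc11a2 have no box.

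With DEHP, 6 of the 10 genes rose and 2 fell, and 2 did not pass. Mt1, Mt2A, Fth1, Ftl1, Slc39a14 and Slc11a2 were higher, the transferrin receptor gene Tfrc and the ferroportin gene Slc40a1 were lower, and Mt3 and Slc30a1 did not pass. A gene passed at an adjusted p under 0.05 in limma, fitted over all probe sets with Benjamini-Hochberg adjustment, and a gene with several probe sets was counted by its lowest-numbered one. Of all 14324 genes with 1 symbol, 24.6% passed, 14.4% higher and 10.2% lower, so calls were common on these arrays. The 6 DEHP arrays lay apart from the 6 control arrays for 7 of the 10 genes, 6 higher and 1 lower, where this held for 16.9% of all genes, 10.0% higher and 6.88% lower. The median log2 fold of DEHP over control was 0.48 over the 10 genes and −0.02 over all 14324. By probe set, 14 of the 18 rose and 2 fell, where 10.5% and 7.82% of all 27342 did (18.3% in all). Many of the 18 are repeat readings of 1 gene, 6 of them of Ftl1, so this count is not separate evidence. Without DEHP replicate 6 the gene counts were 6 higher, 1 lower and 3 not passing, beside 14.0% higher and 9.77% lower over all genes (23.7% in all). The 10 genes were chosen with earlier results of these data known, so these shares are a description. In bulk RNA, fewer cells of a type and less RNA per cell cannot be told apart.

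**Figure D2:**
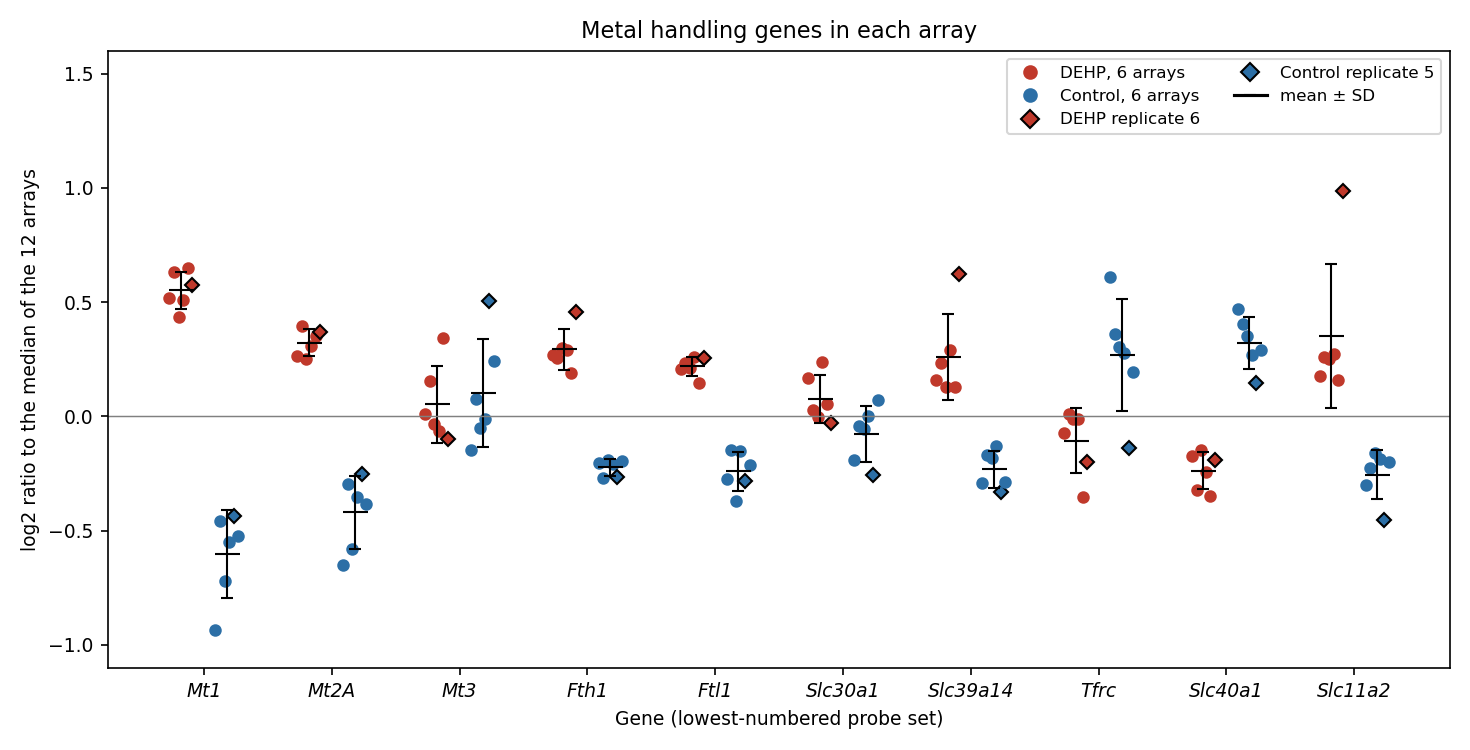
Log2 ratio of each gene (lowest-numbered probe set) to its median over the 12 arrays, with DEHP arrays in red left of control arrays in blue; bars give mean ± SD (n = 6 each), and diamonds mark DEHP replicate 6 and control replicate 5. The groups are apart in 7 genes and overlap in Mt3, Slc30a1 and Tfrc, and DEHP replicate 6 is the highest array for Slc11a2 and Slc39a14, at 0.99 and 0.62.

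Mt1, which encodes the widely expressed metallothionein 1, was the most changed of the 10 genes. Its log2 ratio was lowest at 0.43, with a median of 0.55 and a highest value of 0.65 in DEHP arrays, against −0.93, −0.53 and −0.43 in control arrays. The DEHP arrays lay close together, while the control arrays spread more widely below them. The means were 0.55 ± 0.08 in DEHP arrays and −0.60 ± 0.19 in control arrays (SD, n = 6 each), a 2.23-fold rise (log2 fold 1.15 ± 0.08 SE, limma adjusted p = 7.59e-07). The other Mt1 probe set gave 1.14 ± 0.07, and the 2 probe sets differed by at most 0.07 in any array, so they are not separate evidence.

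Mt2A, the second widely expressed metallothionein, rose too. On its lowest-numbered probe set the DEHP arrays had a lowest value of 0.25, a median of 0.33 and a highest of 0.40, against −0.65, −0.37 and −0.25 in control arrays. Again no array of one group reached the other. The rise was 1.67-fold (log2 fold 0.74 ± 0.07 SE, n = 6 each, limma adjusted p = 5.34e-06). The other Mt2A probe set gave a 1.90-fold rise (0.93 ± 0.07), and within an array the pair differed by 0.04 to 0.17. In both Mt1 and Mt2A the lowest control array was control replicate 1 on the lowest-numbered probe set, at −0.93 and −0.65. Without DEHP replicate 6 the log2 folds were 1.15 for Mt1 and 0.73 for Mt2A.

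Mt3, known mainly from the brain, where it was described as a growth inhibitory factor, lies beside these genes and did not pass. Its values ran from −0.10 over a median of −0.01 to 0.34 in DEHP arrays and from −0.14 over 0.03 to 0.51 in control arrays. The groups overlapped almost fully, and the highest control value was that of control replicate 5. The log2 fold was −0.05, with a 95% interval of −0.29 to 0.19 (limma adjusted p = 0.795), and its sign turned without control replicate 5 (0.030) and after quantile normalization (0.0009). Mt4, the last gene of the row and known from stratified epithelia, gave −0.14 ± 0.10 SE (limma adjusted p = 0.398).

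The log2 folds of the metallothionein probe sets were not equal. The difference between the members of each of 6 pairs was compared between the groups by an exact two-sided permutation test over all 924 splits of the arrays, with Benjamini-Hochberg adjustment over the pairs, and 0.00216 is the smallest p these splits allow. The Mt1 fold exceeded that of Mt2A by 0.41 ± 0.03 SE on the log2 scale (adjusted exact p = 0.00325), and the within-array difference was larger in 6 of 6 DEHP arrays than in any control array. On the highest-numbered probe set of each gene, chosen after seeing the data, the same difference was 0.21 (adjusted exact p = 0.00325), so its size rests on the Mt2A probe set used. The 2 Mt2A probe sets themselves gave 0.74 and 0.93. Unequal change of the Mt1 and Mt2A transcripts therefore cannot be told apart from unequal response of their probe sets. Mt1 exceeded Mt3 by 1.21 ± 0.08, and Mt2A exceeded Mt3 by 0.79 ± 0.09, with the same adjusted exact p of 0.00325. Whether the Mt3 signal lay above background is unknown, since the ratios hold no brightness.

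Over the 12 arrays the genes whose log2 ratios followed Mt1 most closely, among 14313 others, were Mt2A with a Pearson r of 0.995, Psap with 0.992, Mmp2 with 0.986, Sema5a with 0.981 and Parm1 with 0.98. Psap encodes the precursor of the lysosomal saposins, Mmp2 a matrix metalloprotease and Sema5a a semaphorin. Their log2 folds were 0.24 ± 0.03 for Psap, 0.70 ± 0.05 for Mmp2, 1.2 ± 0.05 for Sema5a and 1.55 ± 0.06 for Parm1 (SE, n = 6 each). These correlations are a description, set largely by the difference between the groups that all 5 genes share.

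Both ferritin chains were higher with DEHP. Fth1, the heavy chain that oxidizes iron on entry into the shell, had a lowest value of 0.19, a median of 0.28 and a highest of 0.46 in DEHP arrays, against −0.27, −0.21 and −0.19 in control arrays. The control arrays were nearly level, and the highest DEHP value was that of replicate 6. Fth1 was 1.43-fold higher (log2 fold 0.52 ± 0.04 SE, limma adjusted p = 2.86e-06), or 0.48 ± 0.03 without that array. Its other probe set gave 0.54 ± 0.04.

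Ftl1, the light chain that helps build the iron core, was read by 6 probe sets, and each of them passed. Their log2 folds ran from 0.42 to 0.58, which is 1.34-fold to 1.50-fold, with a largest limma adjusted p of 1.92e-05. On the lowest-numbered probe set the DEHP arrays had a lowest value of 0.15, a median of 0.22 and a highest of 0.26, against −0.37, −0.24 and −0.15 in control arrays. DEHP replicate 5 was the lowest DEHP array on this probe set. The heavy and light chain folds differed by 0.06 ± 0.05 SE (adjusted exact p = 0.264). On the highest-numbered probe sets that difference was 0.12 (adjusted exact p = 0.00779), so whether the chains changed unequally depends on the probe set.

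**Figure D3:**
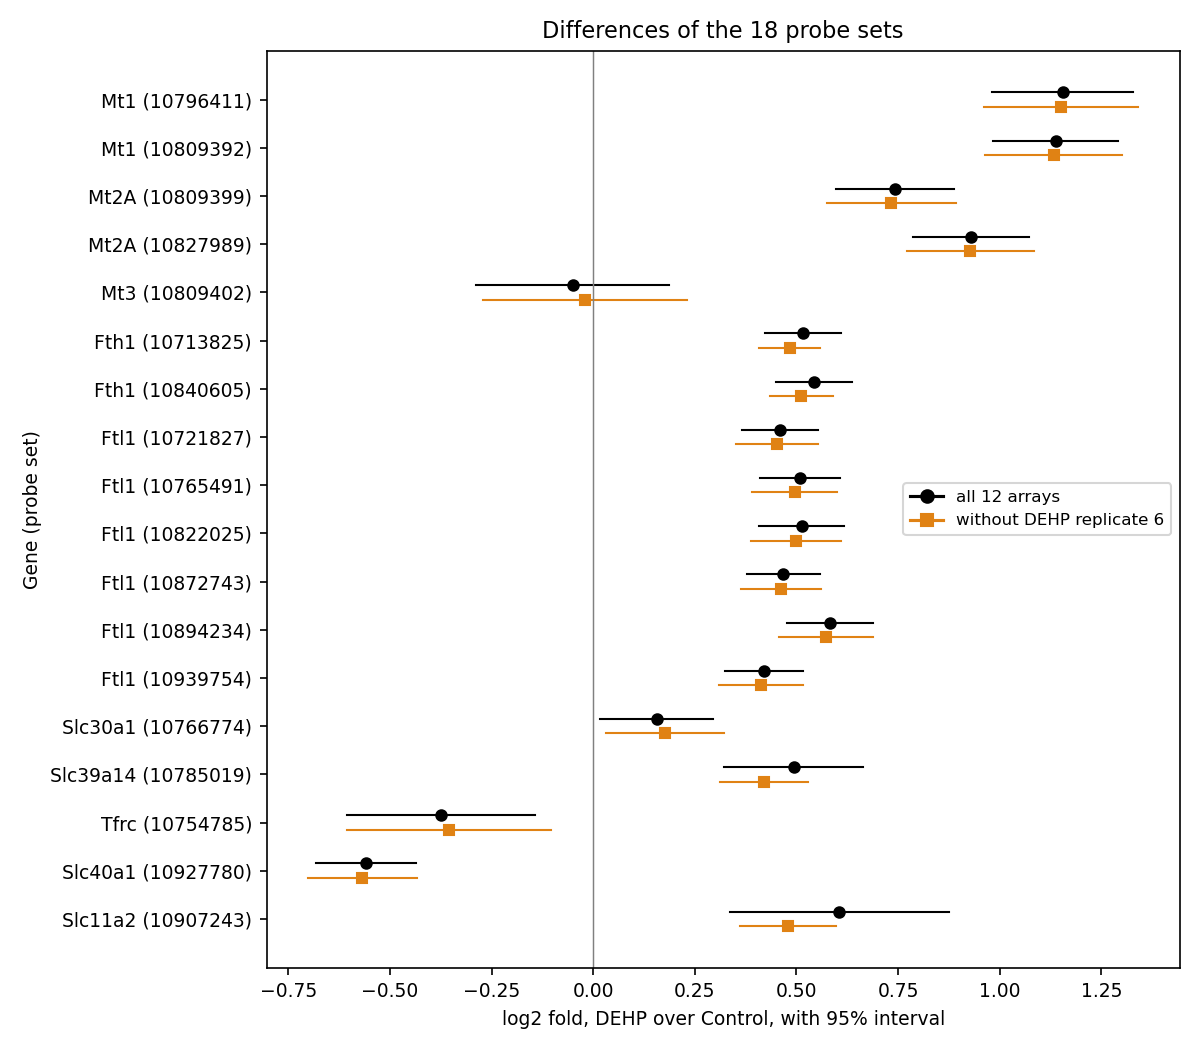
Log2 fold of DEHP over control with its 95% interval from limma for each of the 18 probe sets, over all 12 arrays (black circles) and without DEHP replicate 6 (orange squares). Mt1 is farthest to the right at 1.15 and 1.14, the 6 Ftl1 probe sets lie between 0.42 and 0.58, and Tfrc and Slc40a1 lie left of 0.

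Of the zinc transporters, Slc39a14 rose and Slc30a1 did not pass. Slc39a14 encodes ZIP14, which imports zinc and also iron not bound to transferrin and manganese. Its log2 ratios had a lowest value of 0.13, a median of 0.20 and a highest of 0.62 in DEHP arrays, against −0.33, −0.23 and −0.13 in control arrays. The highest value belonged to DEHP replicate 6, and the other 5 DEHP arrays lay between 0.13 and 0.29. The rise was 1.41-fold (log2 fold 0.49 ± 0.08 SE, limma adjusted p = 0.000642), and 1.34-fold without that array (0.42 ± 0.05, limma adjusted p = 7.12e-05).

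Slc30a1 encodes ZnT1, the zinc exporter of the cell surface. It ran from −0.03 over a median of 0.04 to 0.24 in DEHP arrays and from −0.26 over −0.05 to 0.07 in control arrays, so the groups overlapped. The log2 fold was 0.16, with a 95% interval of 0.02 to 0.29 (limma adjusted p = 0.125). The Slc39a14 fold exceeded the Slc30a1 fold by 0.34 ± 0.11 SE on the log2 scale, and the within-array difference was larger in 6 of 6 DEHP arrays than in any control array (adjusted exact p = 0.00325).

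The iron transporters moved in different directions. Slc40a1, ferroportin, the known cellular exporter of iron, was 1.47-fold lower. It ran from −0.35 over a median of −0.22 to −0.15 in DEHP arrays, against 0.15, 0.32 and 0.47 in control arrays, with no overlap. The log2 fold was −0.56 ± 0.06 SE (limma adjusted p = 1.48e-05), and −0.57 ± 0.06 without DEHP replicate 6. Macrophages also express ferroportin and ferritin strongly. Of 11 macrophage markers 2 rose (Itgam and Cd68, 18.2%), 1 fell (Csf1r, 9.09%) and 8 did not pass, beside 14.4% and 10.2% over all genes. The mean of the list ran from −0.12 to 0.06 in DEHP arrays and from −0.17 to 0.18 in control arrays. Without DEHP replicate 6, 2 macrophage markers rose, 3 fell and 6 did not pass: Adgre1 then fell by 0.79 and Cd14 by 0.43 on the log2 scale (limma adjusted p = 0.00039 and 0.00238), against −0.54 and −0.27 over all arrays (limma adjusted p = 0.176 and 0.315). The part of these cells in the ferroportin result was not tested.

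Tfrc, the transferrin receptor, was 1.30-fold lower (log2 fold −0.37 ± 0.11 SE, limma adjusted p = 0.0268). Its values ran from −0.35 over a median of −0.04 to 0.01 in DEHP arrays and from −0.14 over 0.29 to 0.61 in control arrays. The groups overlapped through control replicate 5, at −0.14, and the other 5 control arrays lay between 0.20 and 0.61. The call was lost when any 1 of 5 arrays was left out, with limma adjusted p of 0.0536 if DEHP replicate 6 was dropped, 0.0543 for DEHP replicate 5, 0.0595 for control replicate 2, 0.0525 for control replicate 3 and 0.0516 for control replicate 4. The log2 fold stayed between −0.46 and −0.31 over the 12 fits that each left out 1 array. Erythroid cells carry much transferrin receptor: of 8 erythroid markers none passed in limma and 1, Hbb, had an unadjusted p under 0.05 (lower), and the list mean ran from −0.14 to 0.14 in DEHP arrays and from −0.06 to 0.36 in control arrays, with control replicate 5 highest. The part of such cells was not tested.

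The falls of Tfrc and Slc40a1 differed by 0.18 ± 0.08 SE on the log2 scale, which did not pass over the 6 pairs (adjusted exact p = 0.0519). It passed without DEHP replicate 5 (0.039), DEHP replicate 6 (0.0364) or control replicate 1 (0.0182).

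Slc11a2 encodes DMT1, which carries iron out of the endosome and also takes up other divalent metals. It had a lowest value of 0.16, a median of 0.26 and a highest of 0.99 in DEHP arrays, against −0.45, −0.21 and −0.16 in control arrays. DEHP replicate 6 stood far above the other 5 DEHP arrays, which lay between 0.16 and 0.27. The rise was 1.52-fold over all arrays (log2 fold 0.61 ± 0.12 SE, limma adjusted p = 0.00373) and 1.39-fold without that array, with a smaller error (0.48 ± 0.05, limma adjusted p = 5.1e-05). Slc11a2 has transcripts with and without an iron-responsive element, and which of them the probe set reads is not given in the sources used here.

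Beyond the 10 members, 9 lists of genes for metal handling and for pathways known to induce metallothioneins held 157 other measured genes. Of these 53 rose (33.8%), 15 fell (9.55%) and 89 did not pass, beside 14.4% and 10.2% over all genes, with a median log2 fold of 0.12. Without DEHP replicate 6 the counts were 54, 16 and 87. The lists were chosen with earlier results of these data known, so their shares are a description and no set test was run. A gene can stand in more than 1 list.

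Among 24 genes listed for zinc transport and sensing 2 rose (8.33%), 4 fell (16.7%) and 18 did not pass, with a median log2 fold of −0.04. Over all genes 14.4% rose and 10.2% fell, so calls in this list were about as common as elsewhere. With DEHP replicate 6 left out, 3 rose and 3 fell. Slc39a10, a zinc importer of the cell surface, rose by 1.003 ± 0.11 SE, and Slc39a13, a zinc transporter of the early secretory pathway, fell by 0.59 ± 0.05 on the log2 scale (limma adjusted p = 2.35e-05 and 5.04e-06). Slc39a10 ran from 0.20 over a median of 0.73 to 0.84 in DEHP arrays, against −0.66, −0.30 and −0.20 in control arrays, and its lowest DEHP value was that of replicate 6. The list also held Slc25a25, a mitochondrial carrier of ATP-magnesium that is no zinc transporter. It was 1 of the 4 that fell (−0.74 ± 0.11). Mtf1, the zinc-sensing transcription factor itself, gave 0.17 ± 0.06 and did not pass (limma adjusted p = 0.0847), but it passed without control replicate 3 (0.0423) and without DEHP replicate 5 (0.0391), and with array weights (0.00752).

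Among 18 further genes of iron uptake, export and storage, 9 were raised (50.0%) and 1 was lowered (5.56%), with 8 not passing. The median log2 fold was 0.21, and the shares over all genes were 14.4% higher and 10.2% lower. Steap4, a metalloreductase, rose 2.59-fold (1.38 ± 0.13 SE, limma adjusted p = 5.68e-06), with 0.45, 0.55 and 1.11 as its lowest, median and highest value in DEHP arrays, against −1.05, −0.79 and −0.45 in control arrays. Lrp1, an endocytic receptor that takes up heme bound to hemopexin among many ligands, rose by 0.59 ± 0.04. Steap3, the ferrireductase of the transferrin cycle, rose by 0.50 ± 0.06. Ncoa4, the receptor that sends ferritin to autophagy, rose by 0.24 ± 0.04 (limma adjusted p = 0.00178).

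Hepcidin and its regulators split in direction. Hamp, which encodes hepcidin, the hormone that binds ferroportin and drives its breakdown, rose 2.53-fold (log2 fold 1.34 ± 0.09 SE, limma adjusted p = 8.8e-07). Its values had a lowest of 0.48, a median of 0.65 and a highest of 0.87 in DEHP arrays, against −1.03, −0.62 and −0.48 in control arrays. Among 14 iron sensing and hepcidin control genes 3 rose and 3 fell, and 8 did not pass. The shares were 21.4% each way, beside 14.4% higher and 10.2% lower over all genes. When DEHP replicate 6 was left out, 2 rose and 3 fell. Smad6 and Smad7, which restrain BMP and TGF beta signalling, fell by 0.87 ± 0.07 and 0.67 ± 0.07. Bmp6, named after its values were seen and known in mice as an inducer of hepcidin in the liver, also fell (−0.87 ± 0.10). The genes of the iron regulatory proteins gave 0.10 ± 0.07 for Ireb2 and 0.07 ± 0.06 for Aco1, and Hfe gave 0.08 ± 0.04; their limma adjusted p were 0.354, 0.469 and 0.202.

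In the list of mitochondrial iron, heme and iron-sulfur clusters 6 of 24 genes rose (25.0%) and 18 did not pass. Over all genes 14.4% rose. Hpx and Hp, which encode the plasma proteins hemopexin and haptoglobin that bind free heme and hemoglobin, rose by 1.83 ± 0.13 and 1.85 ± 0.28 on the log2 scale. For Hp DEHP replicate 6 was at 2.51 and the other 5 DEHP arrays between 0.57 and 0.81, and the log2 fold without it was 1.55. Nfs1, the desulfurase that supplies sulfur to the clusters, rose by 0.38 ± 0.06. Hmox1, heme oxygenase 1, which frees iron from heme, rose by 0.50 ± 0.10 (limma adjusted p = 0.00409). Of 15 genes of copper and manganese handling 4 rose (26.7%, beside the same 14.4%) and 11 did not pass. These counts were 4 higher, 1 lower and 10 not passing without DEHP replicate 6. Those with the smallest p were Cox17 (0.35 ± 0.07), a copper chaperone of cytochrome oxidase, Slc31a2 (0.32 ± 0.07), a copper transporter, and Sod1 (0.17 ± 0.04), the copper-zinc superoxide dismutase.

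**Figure D4:**
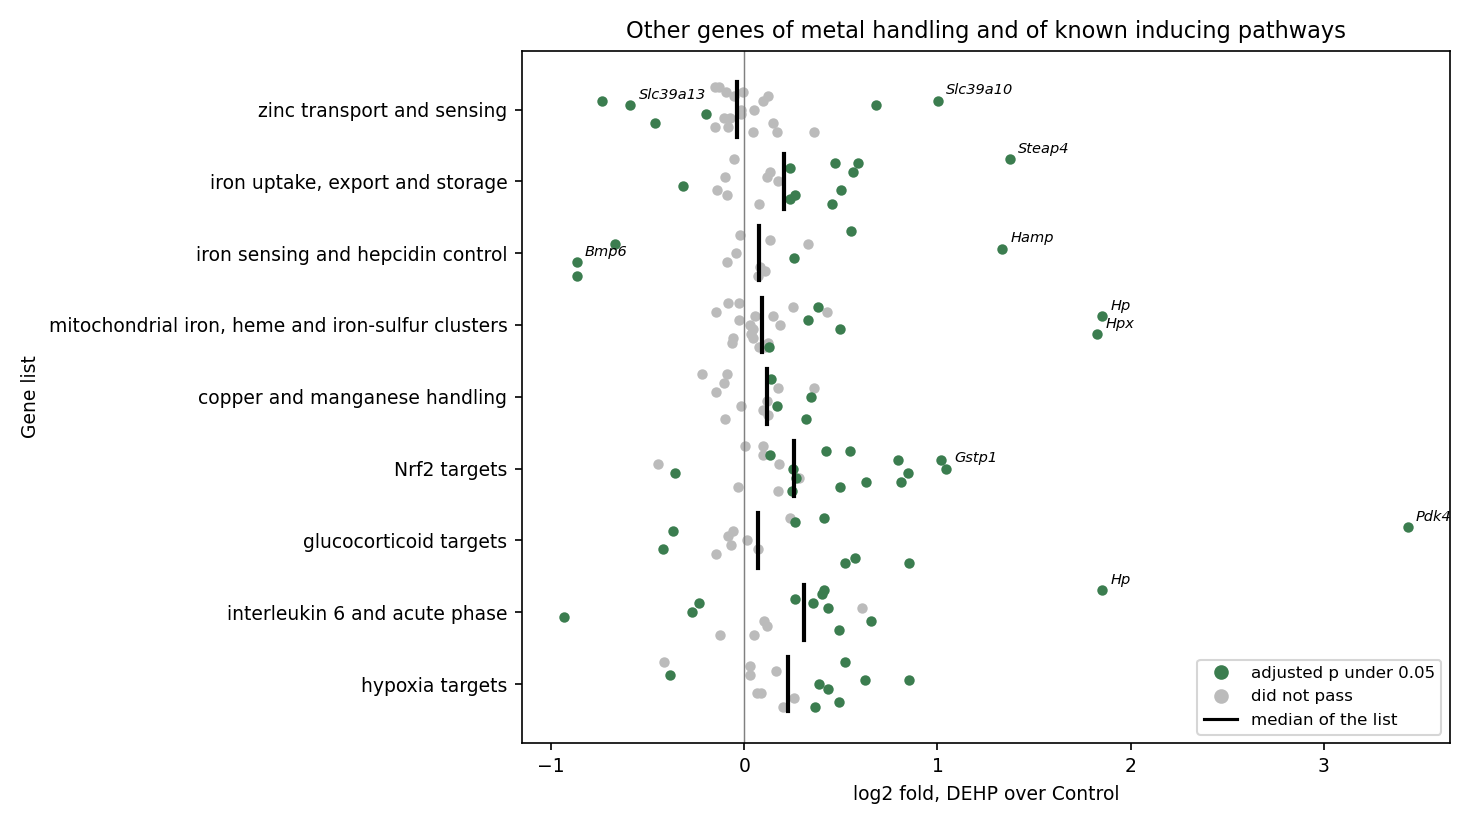
Log2 fold of DEHP over control for each measured gene of 9 lists, 1 point per gene (green, adjusted p under 0.05; grey, did not pass), with a black bar at the median of each list; vertical offsets within a list carry no meaning. The medians run from −0.04 for zinc transport to 0.31 for interleukin 6 and acute phase, and Steap4, Hamp, Hp and Hpx lie between 1.34 and 1.85.

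Of the pathways known to induce metallothioneins or ferritin, genes of each had calls in both directions. Of 22 genes listed as Nrf2 targets, which include the gene of Nrf2, Nfe2l2, 13 rose (59.1%), 1 fell (4.55%) and 8 did not pass. Their median log2 fold was 0.26, and over all genes 14.4% rose and 10.2% fell. The smallest p among them belonged to Sqstm1 (0.63 ± 0.06 SE), the autophagy adaptor p62, and to Gsta4 (0.81 ± 0.09) and Gstp1 (1.05 ± 0.12), glutathione transferases. Without DEHP replicate 6, 13 rose, 2 fell and 7 did not pass: Slc7a11, a subunit of the cystine importer, was at −0.63 (limma adjusted p = 0.00387), against −0.45 over all arrays (limma adjusted p = 0.164). Nfe2l2, which encodes Nrf2 itself, gave 0.25 with a limma adjusted p of 0.0444 that was above the threshold in 10 of the 12 fits that left out 1 array, at 0.0506 to 0.0816. The mean of the Nrf2 list was 0.50 in DEHP replicate 6 and 0.02 to 0.16 in the other DEHP arrays, against −0.39 to −0.08 in control arrays.

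Of 16 interleukin 6 and acute phase genes 8 rose (50.0%), 3 fell (18.8%) and 5 did not pass. For this list and the hypoxia and glucocorticoid lists below, the shares over all genes were 14.4% higher and 10.2% lower. Without DEHP replicate 6, 9 rose, 3 fell and 4 did not pass. The mean of this list was 0.40 in DEHP replicate 6 and 0.01 to 0.10 in the other DEHP arrays, against −0.19 to −0.07 in control arrays. Socs3, the feedback inhibitor of the interleukin 6 pathway, rose by 0.66 ± 0.06 SE, the receptor chain Il6st by 0.40 ± 0.05 and Timp1, a metalloprotease inhibitor, by 0.43 ± 0.05. Of 16 genes listed as hypoxia targets 7 rose (43.8%), 1 fell (6.25%) and 8 did not pass. The 7 include Hif1a and Epas1, which encode hypoxia factors themselves. Ddit4, an inhibitor of mTORC1 signalling, was at 0.85 ± 0.08. The growth factor gene Vegfa was at 0.62 ± 0.06 and the glucose transporter gene Slc2a1 at 0.52 ± 0.07. Of 15 genes listed as glucocorticoid targets 6 rose (40.0%), 2 fell (13.3%) and 7 did not pass, or 7, 2 and 6 without DEHP replicate 6. Nr3c1, which encodes the glucocorticoid receptor itself, was 1 of the 6 that rose over all arrays. The rises there included Ddit4 and Pdk4, a kinase of mitochondrial fuel choice that answers to PPAR alpha too (3.43 ± 0.06), and the falls Dusp1, a MAP kinase phosphatase (−0.37 ± 0.03). Limma adjusted p was at most 0.000193 for each gene with a value in this paragraph.

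Genes listed as markers of several cell types, cardiomyocytes among them, moved in the same arrays. All 7 smooth muscle markers fell, with list means of −1.11 to −0.58 in DEHP arrays, lowest in DEHP replicate 6, against 0.58 to 0.77 in control arrays. Of 12 cardiomyocyte markers 3 rose (25.0%), 5 fell (41.7%) and 4 did not pass. The list means were −0.36 to 0.16 in DEHP arrays and −0.12 to 0.11 in control arrays. Of 8 fibroblast markers 4 rose and 4 fell, of 5 endothelial markers 3 rose and 1 fell, 5 of 5 epicardial and mesothelial markers rose, and of 5 Schwann cell and neuronal markers 3 fell. Leaving out DEHP replicate 6, 4 cardiomyocyte markers rose and 6 fell, and 2 Schwann cell and neuronal markers fell. The counts for the smooth muscle, fibroblast, endothelial and epicardial lists were as over all arrays. In that fit 14.0% of all genes rose and 9.77% fell. The part of these cells in the changes of the 10 metal genes was not tested.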

How the data were processed

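RNA from 12 cultures was measured on Affymetrix arrays with biotin-labelled cRNA, 1 array per culture. Per the submitters' processing notes the authors processed the arrays by RMA (version not stated). What they deposited is a linear ratio to the median of each probe set over the 12 arrays: the median log2 ratio of each probe set lay within 1e-06 of 0. The array and genome build are not given in the sources used here, and the number of arrays sets the precision. The members and lists were chosen with earlier results of these data known.

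The log2 of each ratio was used with no further normalization. The main test was limma's lmFit and eBayes (limma 3.58.1 under R 4.3.3), DEHP minus control, over 27342 probe sets and 12 arrays, two-sided, with Benjamini-Hochberg adjustment. Names came from the platform annotation: 15097 probe sets had 1 symbol, 323 several and 11922 none. Of the probe sets with 1 symbol, 15067 had an Entrez identifier in the RefSeq table, which changed 0 symbols. Genes named are all members, the 3 passing genes of each list with the smallest p, 8 landmarks (Mtf1, Ireb2, Aco1, Hamp, Hfe, Ncoa4, Hmox1 and Nfe2l2), the 5 genes most like Mt1 and, of a marker list set beside a member, markers among the 2 with the smallest p (Csf1r, Itgam and Hbb). Outside this rule Mt4, Bmp6, Cd68, Adgre1, Cd14, Slc7a11, Hif1a, Epas1 and Nr3c1 were named after their values were seen. On simulated arrays of this comparison, over 27342 probe sets with 200 changed, limma found 72% of the probe sets given a log2 change of 0.5 and 100% of those given 1, with 6 false among 178 calls. The simulated noise was normal and independent between arrays and probe sets, with no outlying array. Far fewer probe sets were changed than the 5016 that passed in the real arrays, so these rates may not hold there. Pairs of members were compared by exact permutation, and sequences came from RefSeq tables of GRCr8. Plots used matplotlib 3.10.9. Alternatives were each array left out, DEHP replicate 6 and control replicate 5 left out together, quantile normalization, median centring, array weights, robust eBayes, the replicate block, a minimum fold of 1.2, an adjusted p under 0.01, probe sets with 1 symbol and the mean of the probe sets of a gene.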

Additional observations from a re-analysis of the deposited data

Results flagged for a closer look

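Values of 52 probe sets, those of the 10 members, Mt4 and the other genes named by rule, were examined in each group for 1 array far from the other 5. Of 104 such groups 16 held one, where chance gives about 1 in 20 for independent normal values. The groups are not independent, since they share arrays and Ftl1 was flagged on several of its probe sets, so the 2 rates cannot be compared directly. DEHP replicate 6 was that array 8 times and control replicate 5 was it 5 times. Among the members, Slc11a2 in DEHP replicate 6 was at a log2 ratio of 0.99 (0.16 to 0.27 in the other DEHP arrays), and Slc39a14 there was at 0.62 (0.13 to 0.29). Ftl1 in DEHP replicate 5 was low on 3 probe sets, at 0.15 on 10765491, 0.18 on 10894234 and 0.11 on 10939754, and in control replicate 5 it was low on 2, at −0.39 on 10822025 and −0.31 on 10939754. In DEHP replicate 6, Hp was at 2.51, Gstp1 at 1.02, Sqstm1 at 0.58, Slc2a1 at 0.58 and Nfe2l2 at 0.49, each above the other DEHP arrays, and Slc39a10 was at 0.20, below the 0.70 to 0.84 of the others. In control replicate 5, Gsta4 was at −0.81 and Nfe2l2 at −0.28, below the other controls, and Mt4 was at 0.60, above them.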

How the results depend on the processing

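Over the 18 member probe sets and 21 alternatives each, 366 of 378 log2 folds kept their direction and their side of the threshold. The exceptions were 7 for Tfrc, 3 for Mt3, and 1 each for Slc39a14 and Slc11a2, which did not pass against a minimum fold of 1.2. Mt3 changed sign without control replicate 5 (0.030), without that array and DEHP replicate 6 (0.060), and after quantile normalization (0.0009), its range with 1 array left out being −0.109 to 0.030, and the cause was not tested. Members that fell numbered 1 in place of 2 at an adjusted p under 0.01 and against a minimum fold of 1.2, and 1 to 2 when 1 array was left out; members that rose stayed at 6 except against that fold (4). All probe sets passing, 5016 as reported, numbered 3238 at an adjusted p under 0.01, 7614 with array weights and 1182 against a fold of 1.2, where the list genes passing numbered 23 (18 higher, 5 lower) in place of 68. The difference between Tfrc and Slc40a1 passed after quantile normalization (0.19, adjusted exact p = 0.026), and ranged from 0.14 to 0.22 with 1 array left out, passing in 3 of those 12 settings. With the highest-numbered probe sets, an alternative added after seeing the data, it was 0.18 (adjusted exact p = 0.0433) and that of Fth1 and Ftl1 was 0.12 (0.00779). With the replicate number as a block 6541 probe sets passed, with 6 members higher and 2 lower, and Mtf1 passed (limma adjusted p = 0.0211). Deviations of same-numbered arrays correlated at 0.07 to 0.77. Arrays with different numbers were not compared in this way, so whether the numbers mark pairs cannot be told. The main fit did not use them. The ratios hold no brightness, so signal over background is unknown.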
